A study of Mus musculus with 72 samples.

Results

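The knockout of Fzd1 was set against control in olfactory epithelium at postnatal day 14 (P14), with 3 libraries in each group. The 6 libraries, of 72 in the series, were taken by the genotype, age and treatment in the titles of the count table's columns. The series is total RNA sequencing of the sensory lining of the nose in young mice of 3 genotypes, sampled between P0 and P14 with or without doxycycline (DOX). The knockout mice carried the allele Fzd1-lacZ, which the titles give as homozygous, and are called Fzd1lacZ here. The control mice carried Omp-IRES-tTA, a knock-in that places the transcription factor tTA under Omp, which is active in mature sensory neurons and encodes olfactory marker protein. The control titles read wt beside the name of the Fzd1 transgene of the third genotype, ectopicFzd1, and neither group received DOX. The Fzd1lacZ mice are not labelled as carrying Omp-IRES-tTA, the control mice are not labelled as littermates, and strain, sex and pooling of animals are not labelled, so the lacZ allele, the tTA allele and any difference in background cannot be told apart in this comparison. A further 3 control libraries of the same age, from mice given DOX from birth, were read beside it.

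Frizzled proteins, of which Fzd1 is one, are cell surface receptors that bind secreted Wnt ligands, often with an Lrp5 or Lrp6 co-receptor, and act through beta-catenin or through the planar cell polarity branch. In the olfactory epithelium sensory neurons are renewed from basal cells throughout life, and Wnt signals are known to act on those progenitors. The mucus over the epithelium comes from Bowman's glands and from the lateral nasal and other glands, which secrete odorant-binding proteins of the lipocalin family, and the epithelium is also known for its cytochrome P450 and flavin monooxygenase enzymes, which modify inhaled chemicals.

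Gene counts were 2663154, 6955228 and 5919111 in the 3 Fzd1lacZ libraries, against 3900387, 3092047 and 4135387 in the 3 control libraries. Fzd1lacZ replicate 1 stood apart from the others. Its log2 CPM (CPM, the reads of a gene scaled to the size of its library) correlated at 0.944 and 0.948 with those of its own group and at 0.953 to 0.955 with the control libraries, while Fzd1lacZ replicates 2 and 3 correlated at 0.991 with each other. A family of 13 satellite-like predicted genes including Gm10800 took 34.2%, 5.03% and 7.55% of gene counts in Fzd1lacZ, against 9.06%, 15.2% and 7.36% in control. The libraries also differed in sex-linked RNA. Xist, the RNA that silences an X chromosome in females, was at 20.5, 433 and 464 CPM in Fzd1lacZ, against 40.0, 4.73 and 336 CPM in control, and 4 Y-linked genes summed to 307, 0.872 and 2.002 CPM in Fzd1lacZ, against 211, 238 and 51.2 CPM in control. Y-linked RNA was thus present at these levels in 1 of 3 Fzd1lacZ and in 3 of 3 control libraries, and control replicate 3 held Xist as well. Genes of the vomeronasal receptors, which belong to a neighbouring sense organ, summed to 683, 77.6 and 99.9 CPM in Fzd1lacZ, against 332, 366 and 235 CPM in control, and none of 155 was called by edgeR or DESeq2, with none higher and 1 lower at an unadjusted p below 0.05. Whether each library is a different animal is not labelled, so p-values measure only the spread between libraries. In edgeR's main fit that spread was estimated over all 72 libraries of the series, not from the libraries compared here alone. In bulk tissue, fewer cells of a type and less RNA per cell cannot be told apart.

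Fzd1 (ENSMUSG00000044674; chromosome 5, 4753839 to 4758035, minus strand, GRCm38) was at 3.48, 7.12 and 7.84 CPM in Fzd1lacZ, against 25.9, 20.9 and 23.3 CPM in control. All 3 Fzd1lacZ libraries lay below all 3 control libraries, and none was at 0. On the log2(CPM + 1) scale the difference of means was -1.83, with an exact permutation p of 0.1 (2-sided), the smallest that 3 against 3 allows. Across all genes edgeR's quasi-likelihood test gave a log2 fold change of -1.82 (SE 0.53) with a Benjamini-Hochberg adjusted p of 0.1001, which missed the threshold of 0.05. In the libraries of the 4 other ages, none of which is in the P14 comparison, the same test gave -2.64 (SE 0.29, adjusted p = 1.26e-09).

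Of 22144 genes tested, 158 (0.714%) had an adjusted p below 0.05 at P14 and are called here: 85 were higher (0.384%) and 73 lower (0.33%) in Fzd1lacZ. The median log2 fold change over all genes tested was -0.01. At an unadjusted p below 0.05, 2015 genes passed, 1158 higher (5.23%) and 857 lower (3.87%). All 3 Fzd1lacZ libraries were above all 3 control libraries in 8.07% of the genes tested, and below them in 6.58%. Of the 73 lower genes, 6 were on the list of nasal secretory genes and 6 on that of xenobiotic metabolising enzymes. Among the lists read here, those with at least 3 called members were the nasal secretory genes, the xenobiotic metabolising enzymes, the antimicrobial and chitinase-like genes and the odorant receptors. The count of calls was 62 without Fzd1lacZ replicate 2, 79 without replicate 3, and 88, 59 and 58 without control replicates 1, 2 and 3, against 167 without Fzd1lacZ replicate 1. Leaving out Fzd1lacZ replicate 1 and control replicate 3 together, a choice made after seeing the data, left 65.

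**Figure D1:**
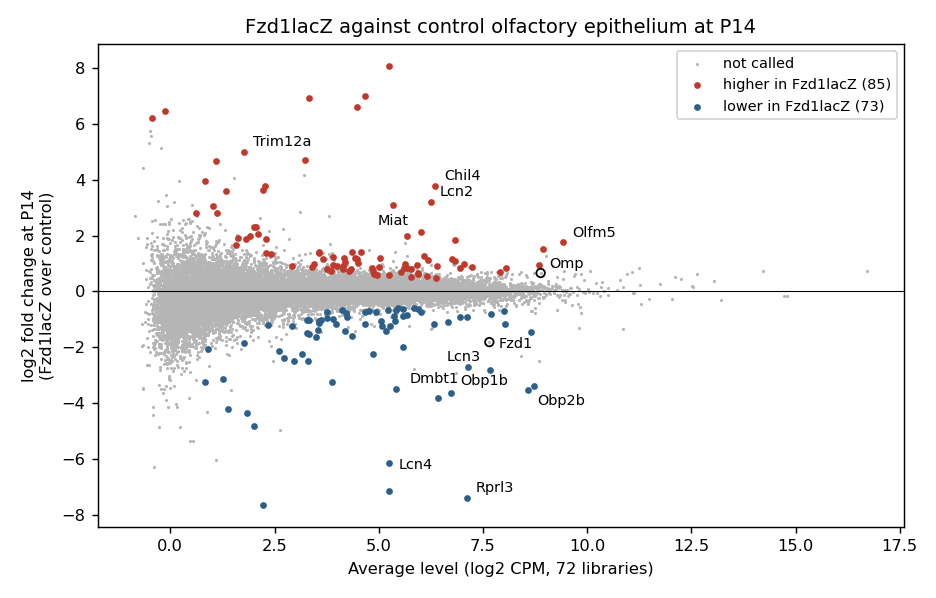
Each point is 1 of 22144 genes, with its average level over 72 libraries as log2 CPM on the x axis and the log2 fold change of Fzd1lacZ over control at P14 on the y axis. The 85 genes called higher are red, the 73 called lower are blue and the others grey, and Fzd1 and Omp, circled, are not called.

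Lipocalins are small barrel-shaped proteins that carry hydrophobic molecules, and those made in the nose bind odorants in the mucus. Of the 26 tested members of the list of Bowman's gland and nasal secretory genes, 6 were called lower and none higher, against 0.33% called lower among all genes. The list median was -0.27 against -0.01 over all genes. The 6 were the lipocalins Lcn4, Obp2b, Obp2a, Lcn3 and Obp1b and the lipid-binding protein gene Bpifb3. Obp2a, Obp2b and Lcn3 are neighbours on chromosome 2, with Lcn4 on the same chromosome. The 150 bases before the RefSeq start of these 4 genes (GRCm38.p6) are shown because the genes were called lower together, with each match to TATAAA in capitals.
Obp2a, chr2:25699924-25700073, plus strand: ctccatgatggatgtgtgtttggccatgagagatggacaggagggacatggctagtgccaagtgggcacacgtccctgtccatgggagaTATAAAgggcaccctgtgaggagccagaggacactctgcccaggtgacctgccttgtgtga
Obp2b, chr2:25736857-25737006, plus strand: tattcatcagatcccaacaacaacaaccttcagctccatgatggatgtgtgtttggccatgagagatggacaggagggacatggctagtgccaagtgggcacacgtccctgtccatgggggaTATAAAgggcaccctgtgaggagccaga
Lcn3, chr2:25765383-25765532, plus strand: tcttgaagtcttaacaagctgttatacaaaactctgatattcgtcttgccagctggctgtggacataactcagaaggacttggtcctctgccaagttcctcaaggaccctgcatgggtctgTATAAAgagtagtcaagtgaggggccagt
Lcn4, chr2:26671283-26671432, minus strand: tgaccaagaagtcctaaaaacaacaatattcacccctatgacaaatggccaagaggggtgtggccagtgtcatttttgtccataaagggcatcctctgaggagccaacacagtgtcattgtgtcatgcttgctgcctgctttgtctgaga
TATAAA was searched on both strands and matched 1 time in the windows of Obp2a, Obp2b and Lcn3 and not in that of Lcn4. It occurs in 7.57% of 32851 promoter windows of the same length. CTTTGAT, letters bound by the TCF/LEF partners of beta-catenin, was searched in the same way and was in none of the 4 windows. It occurs in 1.8% of all windows, so no match in 4 is the usual outcome and nothing is concluded from it. Over the 250 bases before the start, Obp2a and Obp2b were identical at 214 of 217 aligned bases (98.6%), and Obp2a and Lcn4 at 73.1%. The transcripts of Obp2a and Obp2b were identical at 73.5% of aligned bases, so some reads of this pair could be shared or lost.

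Lcn4 (chromosome 2, 26667674 to 26671282, minus strand) was at 1.74, 6.54 and 1.33 CPM in Fzd1lacZ, against 251, 314 and 223 CPM in control. The groups were far apart, with a mean of 3.20 ± 2.89 CPM in Fzd1lacZ and 263 ± 46.6 CPM in control (SD, n = 3 each), and the log2 fold change was -6.16 (SE 0.63, adjusted p = 8.38e-10). It was the smallest adjusted p of any named lipocalin, and the call held when each of the 6 libraries was left out in turn. Obp2b (chromosome 2, 25737009 to 25740097, plus strand) was at 148, 169.5 and 134 CPM in Fzd1lacZ, against 1533, 2173 and 1585 CPM in control, a log2 fold change of -3.55 (SE 0.61, adjusted p = 0.000292). Obp2a was at 119, 179.7 and 129 CPM in Fzd1lacZ, against 1377, 1835 and 1342 CPM in control (log2 fold change -3.41, SE 0.78, adjusted p = 0.0155). Lcn3 was at 83.2, 116 and 104 CPM in Fzd1lacZ, against 609, 887 and 682 CPM in control (-2.83, SE 0.65, adjusted p = 0.0155). In all 4 genes the highest Fzd1lacZ library was well below the lowest control library, and replicate 2 was the highest of its own group on both sides. Obp2a and Lcn3 each kept the call in 2 of the 6 settings that left out a library.

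Obp1b, an odorant-binding protein gene on the X chromosome, was at 202, 45.2 and 57.7 CPM in Fzd1lacZ, against 2258, 971 and 389 CPM in control (log2 fold change -3.63, SE 0.67, adjusted p = 0.000879). Mup5, of the major urinary proteins, which are pheromone-carrying lipocalins, was at 160.2, 17.7 and 34.4 CPM in Fzd1lacZ, against 2099, 598 and 96.7 CPM in control (-3.84, SE 0.99, adjusted p = 0.0424). Both genes varied several-fold within each group, and in both groups the highest library was replicate 1, which held Y-linked RNA. For Mup5 the ranges overlapped, since Fzd1lacZ replicate 1 lay above control replicate 3. The part of sex-linked RNA in these differences was not tested.

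Other secreted proteins were lower as well. Dmbt1, a scavenger-receptor mucin-like glycoprotein of mucosal fluids, was at 54.0, 92.5 and 78.3 CPM in Fzd1lacZ, against 359, 605 and 515 CPM in control (log2 fold change -2.70, SE 0.53, adjusted p = 0.00285), and was called in all 6 leave-one-out settings. Pip, the prolactin-induced protein of gland secretions, was at 0.435, 0.291 and 0.167 CPM in Fzd1lacZ, against 9.49, 4.39 and 2.36 CPM in control (-4.22, SE 0.98, adjusted p = 0.0165). Crisp1, a cysteine-rich secretory protein known from the epididymis, was at 13.9, 3.05 and 7.67 CPM in Fzd1lacZ, against 25.7, 46.6 and 32.1 CPM in control (-2.26, SE 0.50, adjusted p = 0.00933). In these 3 genes no Fzd1lacZ library reached the lowest control library. Bpifb3, whose protein belongs to a family that binds lipids in airway mucus, was at 199.8, 399 and 366 CPM in Fzd1lacZ, against 767, 630.1 and 808 CPM in control (-1.19, SE 0.29, adjusted p = 0.028). Not every secretory gene was lower: among the members that were not called, fitted values ran from -2.30 for Obp1a to 0.93 for Bpifb1, and the mucin gene Muc5b had 0.21.

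The control libraries from mice given DOX lay below the untreated control libraries in these genes. Lcn4 was at 35.9, 63.8 and 123 CPM in control with DOX, Obp2b at 404, 474 and 970.4 CPM, Lcn3 at 176, 238 and 444 CPM and Dmbt1 at 150.04, 156 and 294 CPM, in each case above all 3 Fzd1lacZ libraries. Set against control with DOX, Lcn4 had a log2 fold change of -4.32 (adjusted p = 1.18e-05) and Obp2b of -2.03 (adjusted p = 0.047), while Obp2a had -1.94 (adjusted p = 0.186), Lcn3 -1.49 (adjusted p = 0.245) and Dmbt1 -1.39 (adjusted p = 0.172). Pip had -1.18 (adjusted p = 0.776) and Bpifb3 -0.70 (adjusted p = 0.226). In Obp1b, Crisp1 and Mup5 the sign turned round. Obp1b was at 48.4, 53.6 and 72.6 CPM in control with DOX, which gave 0.75 (adjusted p = 0.701), Crisp1 was at 6.71, 5.23 and 6.12 CPM, which gave 0.25 (adjusted p = 0.922), and Mup5 was at 2.76, 2.61 and 4.66 CPM, which gave 4.31 (adjusted p = 0.0796). The lower levels of Obp1b, Crisp1 and Mup5 thus hold against control without DOX and not against control with DOX. Of the secretory list, 2 members were called lower and 1 higher against control with DOX, and the list median was 0.44. The count called lower was 3 without Fzd1lacZ replicate 1, 4 without Fzd1lacZ replicate 2, 3 without Fzd1lacZ replicate 3, 3 without control replicate 2, 5 without control replicate 1 or 3, and 3 without both Fzd1lacZ replicate 1 and control replicate 3.

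**Figure D2:**
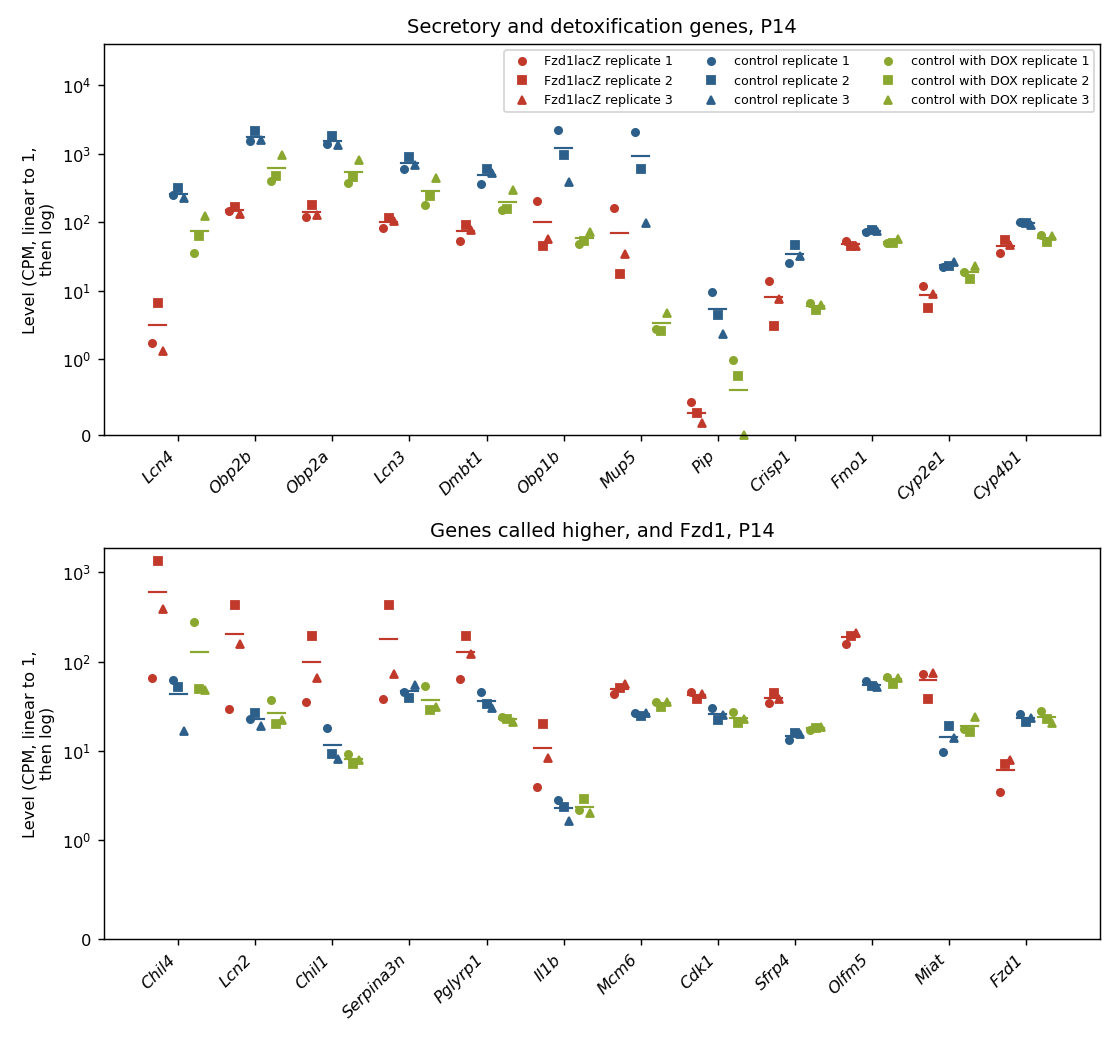
Levels at P14 of 24 genes in each library, in CPM on an axis that is linear to 1 and logarithmic above, with the mean of 3 libraries as a bar and the replicates as circle, square and triangle. Fzd1lacZ is on the left of each gene, control in the middle and control with DOX on the right: Lcn4, Obp2b, Obp2a, Lcn3 and Dmbt1 are lowest in Fzd1lacZ, while Obp1b, Mup5 and Crisp1 are highest in control without DOX and not lowest in Fzd1lacZ.

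Enzymes that modify foreign chemicals were the other list with 6 members called lower. Of 21 tested members of the list of xenobiotic metabolising enzymes, 6 were called lower and none higher, 19 of 21 had negative fitted values, and the median was -0.36. Among all genes tested, 0.33% were called lower. Limma on TPM, values scaled for gene length and library, called 1 member lower with a pseudocount of 1 and 0 with 0.1. Cyp2e1, a cytochrome P450 that oxidises ethanol and small solvents, was at 11.8, 5.67 and 9.01 CPM in Fzd1lacZ, against 22.1, 23.3 and 26.4 CPM in control (log2 fold change -1.53, SE 0.33, adjusted p = 0.00644). Cyp4b1, another P450, was at 36.1, 54.9 and 46.4 CPM in Fzd1lacZ, against 102, 96.2 and 91.3 CPM in control (-1.05, SE 0.22, adjusted p = 0.00459). The groups did not overlap in either gene. Further called members were the flavin monooxygenase gene Fmo1 at -0.64 (SE 0.16, adjusted p = 0.0372) and, named because the count is small and after their values were seen, Cyp2b10 at -1.44 (SE 0.37, adjusted p = 0.0432) and the carboxylesterase Ces1f at -1.07 (SE 0.28, adjusted p = 0.0484). Cyp4b1 kept the call in every leave-one-out setting, while the count of called members was 2 without Fzd1lacZ replicate 2, 3 without Fzd1lacZ replicate 3, 3 without control replicate 1, 3 without control replicate 2 and 2 without control replicate 3. Against control with DOX 1 member was called, Cyp2e1 (-1.19, adjusted p = 0.0404), and Cyp4b1 had -0.36 (adjusted p = 0.518).

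Sustentacular cells, the supporting cells that surround the neurons, hold many of these enzymes. Of 14 sustentacular cell markers none was called by edgeR and 1 was called lower by DESeq2, with 1 higher and 1 lower at an unadjusted p below 0.05, and their median was 0.09. Cyp2g1, a P450 specific to the olfactory mucosa, was at 2404, 3829.6 and 3676 CPM in Fzd1lacZ, against 3239, 3395 and 3814 CPM in control (-0.08, adjusted p = 0.99). The ranges of the 2 groups overlapped, with Fzd1lacZ replicate 1 the lowest library. Summed over the list, sustentacular markers were at 6974 to 12656 CPM in Fzd1lacZ and at 9869 to 10590.4 CPM in control.

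**Figure D3:**
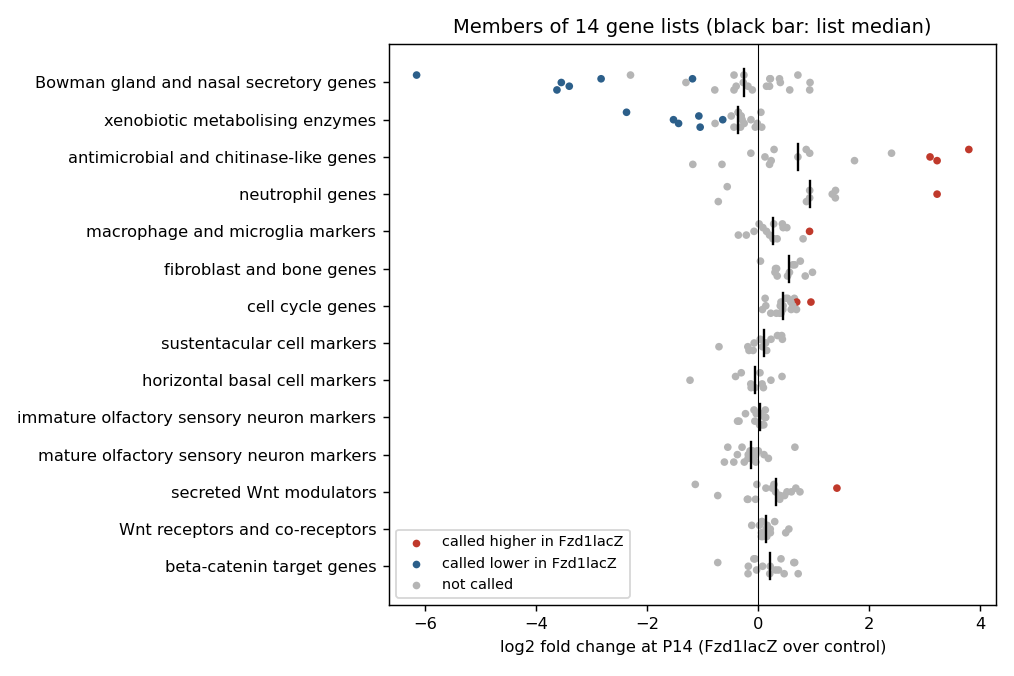
Log2 fold change of Fzd1lacZ over control at P14 for the tested members of 14 gene lists, 1 point per gene, with the median of each list as a black bar. Red points are called higher, blue called lower and grey not called: the secretory list spreads from -6.16 to 0.93, while none of the Wnt receptors or the neuronal markers is called.

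Of 15 tested antimicrobial and chitinase-like genes, 3 were called higher and none lower, 7 were higher at an unadjusted p below 0.05, 3 had negative fitted values, and the median was 0.71. Among all genes tested, 0.384% were called higher and 5.23% were higher at the unadjusted threshold. Chil4, a chitinase-like lectin of inflamed airways, was at 66.2, 1336 and 389 CPM in Fzd1lacZ, against 62.4, 52.3 and 16.7 CPM in control (log2 fold change 3.79, SE 0.92, adjusted p = 0.0263). Lcn2, an iron-siderophore-binding lipocalin released by neutrophils and inflamed epithelium, was at 29.6, 431 and 155 CPM in Fzd1lacZ, against 22.6, 26.3 and 19.1 CPM in control (3.22, SE 0.62, adjusted p = 0.00197). Chil1, another chitinase-like protein, was at 35.7, 193 and 66.2 CPM in Fzd1lacZ, against 18.2, 9.12 and 8.02 CPM in control (3.09, SE 0.70, adjusted p = 0.014). In these genes replicate 2 was the highest and replicate 1 came closest to control, and for Chil4 replicate 1 stood just above the highest control library. Without Fzd1lacZ replicate 2 none of the 15 genes was called, without control replicate 2 and without control replicate 3 there was 1 in each case, and without Fzd1lacZ replicate 1 and control replicate 3 there was 1. None of the 15 was called with only the 6 libraries fitted or by limma on either TPM scale, and 7 were called with no filter on low counts.

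Further called genes with roles in defence or the acute phase, which were not a list of their own, were also highest in Fzd1lacZ replicate 2. Serpina3n, an acute phase protease inhibitor, was at 38.3, 427 and 71.7 CPM in Fzd1lacZ, against 45.2, 39.2 and 55.2 CPM in control (1.97, SE 0.48, adjusted p = 0.0268). Pglyrp1, which binds bacterial peptidoglycan, was at 63.6, 196 and 123 CPM in Fzd1lacZ, against 45.2, 33.4 and 30.4 CPM in control (1.83, SE 0.36, adjusted p = 0.0029). The cytokine gene Il1b was at 3.92, 19.8 and 8.34 CPM in Fzd1lacZ, against 2.82, 2.36 and 1.65 CPM in control (2.31, SE 0.59, adjusted p = 0.0405). For Pglyrp1 and Il1b all 3 Fzd1lacZ libraries were above control, while for Serpina3n replicate 1 was below all 3 control libraries and the ranges overlapped. Serpina3g (3.06), Kng2 (2.06), Itln1 (1.88) and the acute phase glycoprotein gene Orm1 (3.96) were called as well, each with its highest value in Fzd1lacZ replicate 2, and Itln1 also overlapped with control. In Serpina3g the lowest of the 3 was replicate 3. Of the genes in this group, Il1b and Orm1 kept the call in 1 of 6 leave-one-out settings, Lcn2 in 5 and Pglyrp1 in 4.

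Immune cell markers moved with these genes in part. Of 9 tested neutrophil genes, 1 was called (Lcn2), 4 were higher at an unadjusted p below 0.05 and the median was 0.92. The neutrophil list summed to 443, 1949.8 and 733 CPM in Fzd1lacZ, against 626, 414 and 342 CPM in control, so that Fzd1lacZ replicate 1 lay inside the control range, and none of its genes was at 0 in all 6 libraries. Of 16 macrophage and microglia markers, 1 was called: Cd68, a lysosomal protein of macrophages, was at 10.01, 11.3 and 8.01 CPM in Fzd1lacZ, against 6.41, 5.07 and 4.01 CPM in control (0.92, SE 0.24, adjusted p = 0.0411). That call was lost with DESeq2, with only the 6 libraries fitted, and without Fzd1lacZ replicate 1, Fzd1lacZ replicate 2, control replicate 2 or control replicate 3. The macrophage list as a whole summed to 217, 369.6 and 277 CPM in Fzd1lacZ, against 279.7, 244 and 209.7 CPM in control, with overlapping ranges. Of 22 MHC class I and interferon response genes none was called, with 6 higher and none lower at an unadjusted p below 0.05 by edgeR's quasi-likelihood test, and DESeq2 called none either. Lymphocyte genes went the other way. Of 10 tested, none was called by edgeR or DESeq2, 9 had negative fitted values and the median was -0.63. The lymphocyte list summed to 24.8, 11.5 and 13.7 CPM in Fzd1lacZ, against 26.4, 23.6 and 19.1 CPM in control, with overlapping ranges. The part of immune cell numbers in the higher defence genes was not tested.

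In control with DOX the defence genes were not all at control level. Chil4 was at 281, 49.7 and 48.7 CPM there, so that against control with DOX it had 2.23 (adjusted p = 0.175). Lcn2 was at 37.3, 19.9 and 22.1 CPM and Chil1 at 9.28, 7.06 and 7.87 CPM, which gave 2.97 (adjusted p = 0.00271) and 3.63 (adjusted p = 0.00233). Pglyrp1 had 2.52 (adjusted p = 1.73e-05) and Serpina3n 2.27 (adjusted p = 0.00453) in the same comparison.

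Genes of cell division stood higher in Fzd1lacZ by small amounts. All 20 tested members of the cell cycle list had positive fitted values, 14 passed an unadjusted p below 0.05 and 2 were called, with a median of 0.44. Among all genes tested, 5.23% were higher at the unadjusted threshold and 0.384% were called higher. Mcm6, a subunit of the replicative helicase, was at 43.1, 50.4 and 55.7 CPM in Fzd1lacZ, against 26.4, 24.7 and 26.9 CPM in control (0.95, SE 0.17, adjusted p = 0.000621), and was called in all 6 leave-one-out settings. Cdk1, the kinase that drives mitosis, was at 45.3, 37.8 and 43.5 CPM in Fzd1lacZ, against 30.0, 21.9 and 25.5 CPM in control (0.69, SE 0.17, adjusted p = 0.0342), and was called in 1 of them. In both genes every Fzd1lacZ library was above every control library. Summed over the list, cell cycle genes were at 969, 850.01 and 943 CPM in Fzd1lacZ, against 634, 619 and 684 CPM in control, and in TPM, which is scaled for gene length, at 154, 133 and 160.2 in Fzd1lacZ, against 103, 106 and 142 in control. On the TPM scale the ranges overlapped, since control replicate 3 lay above Fzd1lacZ replicate 2. Limma on log2 TPM called none of the list with either pseudocount. Other called genes of mitosis and DNA repair, named after their values were seen, were the motor Kif11 (0.65), Mad2l1 of the spindle checkpoint (0.60), Bora (0.97) and Fancd2 (0.81).

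Lists of neuronal progenitor and horizontal basal cell genes, which are not confined to dividing cells, were also read. Of 17 neuronal progenitor and neurogenesis factors none was called by edgeR or DESeq2, with none higher and 2 lower at an unadjusted p below 0.05, and the median was -0.22. Of 11 horizontal basal cell markers none was called by either tool, with none higher and 1 lower at the unadjusted threshold, and the median was -0.06. The transcription factor gene Ebf2 was at 352, 350.1 and 376 CPM in Fzd1lacZ, against 421, 450.5 and 477 CPM in control (-0.32, adjusted p = 0.66).

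No gene of the fibroblast and bone list was called. The list had 12 of 12 positive fitted values and 6 above the unadjusted threshold, with a median of 0.54, and the count of calls was 0 by edgeR and by DESeq2. Col1a1, a collagen gene of the list, was at 1019, 2717 and 2123 CPM in Fzd1lacZ, against 1658, 1622 and 1486 CPM in control (0.30, adjusted p = 0.866), with Fzd1lacZ replicate 1 the lowest and replicate 2 the highest of the 6. The list summed to 4283, 7720.01 and 6706 CPM in Fzd1lacZ, against 5009.6, 4815 and 4429 CPM in control. Some called genes outside the list encode matrix proteins or enzymes that cut them. They were picked after their values were seen, form no tested group, and were the proteoglycan Vcan (1.27), fibronectin Fn1 (0.84), Col12a1 (0.94), Thbs2 (0.97) and the fibrillin Fbn2 (1.09), with the proteases Mmp14 (0.91) and Ctsk (1.11). In all 7 the groups did not overlap, which adds no support, since they were picked from genes called higher in these libraries. Among all genes tested, all 3 Fzd1lacZ libraries were above all 3 control libraries in 8.07%. Tnfsf11, which encodes RANKL, the cytokine that drives osteoclast formation, was at 6.53, 4.50 and 3.50 CPM in Fzd1lacZ, against 0.257, 0.675 and 0.236 CPM in control (3.59, SE 0.60, adjusted p = 0.000228). It was at 1.97, 2.88 and 1.17 CPM in control with DOX, which lay between the other groups and gave 1.2003 (adjusted p = 0.178).

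Of 19 mature neuron markers none was called by edgeR or DESeq2, with none higher and 3 lower at an unadjusted p below 0.05, 16 of 19 fitted values were negative, and the median was -0.13. Of 14 immature neuron markers none was called by either tool, with none higher and 2 lower, and the median was 0.03. Gnal, the olfactory G protein that couples odorant receptors to cyclic AMP, was at 758, 1364 and 1071 CPM in Fzd1lacZ, against 1012, 1108 and 1175 CPM in control (-0.04, SE 0.23, adjusted p = 0.998). Omp (chromosome 7, 98143359 to 98145502, minus strand), the locus of the tTA allele in control, was at 1174, 3018 and 2475 CPM in Fzd1lacZ, against 1329, 1384 and 1514 CPM in control (0.66, SE 0.33, adjusted p = 0.563). Fzd1lacZ replicates 2 and 3 were above control and replicate 1 below it.

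Other genes among those named by rule were lower. Nphs1, the gene of nephrin, an adhesion protein known from the kidney filter and listed here among activity-dependent olfactory genes, was at 4.79, 3.05 and 4.004 CPM in Fzd1lacZ, against 20.5, 21.3 and 21.7 CPM in control (-2.49, SE 0.41, adjusted p = 0.000168). Eomes, a T-box factor listed among olfactory bulb genes, was at 7.40, 9.44 and 6.01 CPM in Fzd1lacZ, against 17.7, 16.5 and 19.6 CPM in control (-1.22, SE 0.30, adjusted p = 0.027). Hddc3, a phosphohydrolase of the HD domain family, was at 23.1, 21.1 and 22.5 CPM in Fzd1lacZ, against 77.7, 91.5 and 92.0 CPM in control (-1.98, SE 0.27, adjusted p = 4.73e-06). The groups were well separated in all 3, and Nphs1 and Hddc3 were called in every leave-one-out setting. Eomes was called in 1 of the 6, that without Fzd1lacZ replicate 2. Against control with DOX they had -2.81 (Nphs1, adjusted p = 6.38e-06), -1.16 (Eomes, adjusted p = 0.0244) and -2.00 (Hddc3, adjusted p = 2.33e-06).

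Odorant receptor genes, each of which is used by a small share of the neurons, took 0.577%, 0.554% and 0.552% of gene counts in Fzd1lacZ, against 0.429%, 0.451% and 0.498% in control. All 3 Fzd1lacZ libraries were above control, by 0.102 percentage points on average, with an exact permutation p of 0.1 (2-sided), the smallest possible. As a percent of TPM the difference was 0.0213 with an exact permutation p of 0.2, and the groups overlapped. Of 978 receptor genes tested, 6 were called higher and 2 lower, a share close to the 0.714% called among all genes, 119 were higher and 6 lower at the unadjusted threshold, and the median was 0.35. Near-identical receptor genes can share or lose reads, so single receptors are uncertain.

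Olfr1507, the receptor MOR28 long used to study receptor choice, was at 60.5, 76.0 and 50.9 CPM in Fzd1lacZ, against 30.8, 23.3 and 26.7 CPM in control (1.21, SE 0.26, adjusted p = 0.00764), and was also higher at the other ages (1.02, adjusted p = 3.11e-05). Olfr566 was at 8.71, 9.59 and 5.67 CPM in Fzd1lacZ, against 1.80, 2.03 and 2.12 CPM in control (1.99, SE 0.40, adjusted p = 0.00373). Its neighbour Olfr568 moved the other way, at 0, 0.291 and 0.334 CPM in Fzd1lacZ, against 1.80, 2.70 and 3.54 CPM in control (-3.26, SE 0.68, adjusted p = 0.00497). Both lie on chromosome 7, inside the window around Omp that is described with the loci. Olfr1024 had no read in the 3 control libraries and was at 3.92, 1.60 and 1.84 CPM in Fzd1lacZ, so that no fold change is given. Without Fzd1lacZ replicate 2 or without control replicate 3, 1 receptor was called higher and none lower, and without control replicate 2, 1 was called in each direction. The count called higher was 3 without control replicate 1 and 4 without Fzd1lacZ replicate 3, 17 when the share of Gm10800-type reads entered the fit, 13 against control with DOX, and 0 without both Fzd1lacZ replicate 1 and control replicate 3 or by limma on log2(TPM + 0.1).

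Few other genes of the Wnt pathway passed the test. Of the 15 other receptors and co-receptors none was called by edgeR or DESeq2, with 2 higher and none lower at an unadjusted p below 0.05, 14 of 15 fitted values were positive and the median was 0.14. Fzd3 was at 193, 203 and 194 CPM in Fzd1lacZ, against 172, 179 and 184 CPM in control (0.14, adjusted p = 0.89), and the co-receptor gene Lrp6 at 137, 149 and 139 CPM in Fzd1lacZ, against 138, 138 and 134 CPM in control (0.05, adjusted p = 0.98). Of 12 tested ligand genes none was called by either tool, with 1 higher and none lower at the unadjusted threshold, and of 18 signal transducers none was called by either, with none higher and 2 lower. Ctnnb1, the gene of beta-catenin, was at 642, 860.04 and 835 CPM in Fzd1lacZ, against 715, 704 and 731 CPM in control (0.12, adjusted p = 0.94).

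Of 16 beta-catenin target genes none was called by edgeR or DESeq2, with 1 higher and none lower at the unadjusted threshold, and the median was 0.21. Axin2, the target most used as a readout, had a fitted value of -0.03 and Lef1 of 0.72, both not called. Of 19 secreted Wnt modulators 1 was called: Sfrp4, a secreted Frizzled-related protein that binds Wnt ligands, was at 34.0, 45.04 and 38.2 CPM in Fzd1lacZ, against 13.1, 15.9 and 15.6 CPM in control (1.42, SE 0.32, adjusted p = 0.0155). Every Fzd1lacZ library was above every control library, and the call held in 2 of 6 leave-one-out settings. Against control with DOX, at 17.2, 18.04 and 18.4 CPM, it had 1.15 (adjusted p = 0.0397).

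Several of the called genes were also called over the mean of the other ages, though not at every age. Trim12a, a tripartite motif gene on chromosome 7, was at 11.3, 11.2 and 6.34 CPM in Fzd1lacZ, against 0.257, 0.338 and 0.236 CPM in control, with a log2 fold change of 5.001 (adjusted p = 1.88e-05) at P14 and 6.24 (adjusted p = 5.08e-11) over the other ages. Rprl3, a gene whose name marks it as like the RNA of ribonuclease P, was at 1.74, 1.89 and 1.17 CPM in Fzd1lacZ, against 412, 204 and 198 CPM in control, with -7.40 (adjusted p = 0.000154) at P14 and -6.91 (adjusted p = 2.67e-11) over the other ages. Eif3j2 and Eno1b, genes named after a translation factor subunit and an enolase, had -4.35 and 4.69 at P14 and -3.68 and 3.63 over the other ages. Trim34a had 1.89 and 1.06, and the long noncoding RNA gene Miat had 2.12 and 0.72. Miat was at 73.1, 37.8 and 74.4 CPM in Fzd1lacZ, against 9.75, 18.9 and 13.9 CPM in control. At P0 the ranges of Trim12a, Trim34a and Miat overlapped: Trim12a averaged 7.54 CPM in Fzd1lacZ and 8.38 CPM in control, with log2 fold changes of -0.12 (adjusted p = 0.868) for Trim12a, -0.19 (adjusted p = 0.758) for Trim34a and -0.07 (adjusted p = 0.883) for Miat. Rprl3 was called lower at each of the 5 ages. Low values of Rprl3 were not confined to Fzd1lacZ. It ranged from 0.588 to 166 CPM in control with DOX at P7. In ectopicFzd1 with DOX it ranged from 0.302 to 62.0 CPM at P1 and from 0.587 to 128 CPM at P3. The genes of this paragraph have close copies or processed pseudogenes in several cases, for which reads can be shared or lost. A difference of background between the groups cannot be told apart from the Fzd1-lacZ allele. Rprl2, a further RNase P-like gene, was at 0.435, 3.63 and 0 CPM in Fzd1lacZ, against 694, 10.1 and 17.7 CPM in control, so that control replicate 1 sets the size of its log2 fold change of -7.15 (SE 1.46).

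Within 10 Mb of Fzd1, 4 of 73 tested genes (5.48%) were called, against 0.714% of all genes. Steap4, a metalloreductase of adipose tissue and inflammation, was at 73.6, 81.4 and 67.4 CPM in Fzd1lacZ, against 35.2, 39.8 and 36.8 CPM in control (0.996, SE 0.26, adjusted p = 0.042). The guidance cue gene Sema3d was at 55.7, 54.3 and 49.2 CPM in Fzd1lacZ, against 33.4, 27.0 and 29.2 CPM in control (0.82, SE 0.21, adjusted p = 0.0452). Cfap69, a cilium protein gene, was at 202, 242 and 199.7 CPM in Fzd1lacZ, against 361, 359.6 and 399 CPM in control (-0.80, SE 0.17, adjusted p = 0.00523), and Rundc3b had -0.58 (adjusted p = 0.0466). Cfap69 and Rundc3b were lower at the other ages as well, with -0.89 (adjusted p = 5.08e-11) and -0.36 (adjusted p = 0.00729), while Steap4 and Sema3d both had -0.06 there and lost the call whenever 1 library was left out. Within 10 Mb of Omp, the locus of the allele carried by control, 11 of 352 tested genes (3.12%) were called, among them Trim12a, Trim34a, Olfr566 and Olfr568. Myo7a, an unconventional myosin gene next to Omp, had 0.90 at P14 and 0.84 at the other ages. The calpain gene Capn5, whose interval contains Omp, so that reads of the pair can be ambiguous, had -0.73 and -0.98.

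In libraries of the 4 other ages, 12 Fzd1lacZ and 10 control, 473 genes (2.14%) were called for the mean effect, 210 higher (0.948%) and 263 lower (1.19%). Of the 85 genes higher at P14, 17 were called higher there and none lower, and 64 had a positive fitted value. Of the 73 genes lower at P14, 26 were called lower there and 1, Fut10, higher, and 68 had a negative fitted value. From the youngest age to the oldest, the median log2 fold change of the 73 lower genes was -0.14, -0.38, -0.56, -0.88 and -1.22, the last being the comparison that chose them. For the 85 higher genes the medians were -0.01, 0.17, 0.27, 0.24 and 1.18, and for all genes at the 4 ages before P14 they lay between -0.04 and 0.05. The lipocalins did not pass the test over the other ages, with -1.51 for Lcn4 (adjusted p = 0.58), -1.15 for Obp2b (adjusted p = 0.0691) and -0.83 for Lcn3 (adjusted p = 0.22). Cyp4b1 (-0.51, adjusted p = 0.0155), Nphs1 (-0.92, adjusted p = 0.0168) and Hddc3 (-0.96, adjusted p = 1.93e-05) did.

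The mean levels of the lipocalin genes in control were highest at P14. From the youngest age to the oldest, Lcn4 averaged 0.542, 0.239, 1.27, 1.72 and 3.20 CPM in Fzd1lacZ, against 0.1502, 0.490, 3.69, 29.2 and 263 CPM in control. Obp2b averaged 42.3 CPM in Fzd1lacZ and 214 CPM in control at P7, 104 CPM in Fzd1lacZ and 461 CPM in control at P10, and 150.3 CPM in Fzd1lacZ and 1763 CPM in control at P14. The difference at P14 minus that at the other ages was -4.65 for Lcn4 (SE 1.31, adjusted p = 0.172) and -2.40 for Obp2b (SE 0.67, adjusted p = 0.17), which did not pass the test of the interaction.

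**Figure D4:**
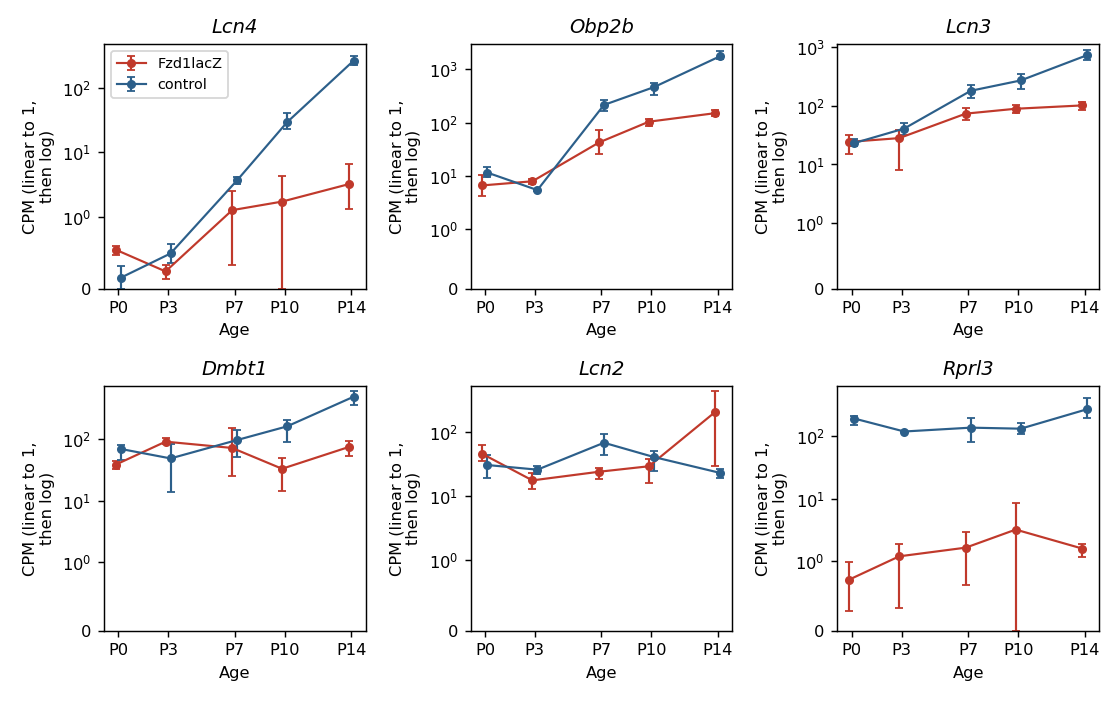
Mean level of 6 genes at P0, P3, P7, P10 and P14 in Fzd1lacZ (red) and control without DOX (blue), in CPM on an axis that is linear to 1 and logarithmic above, with bars over the range of the 2 or 3 libraries. Lcn4, Obp2b and Lcn3 climb in control to P14, Lcn2 is higher in Fzd1lacZ at P14, and Rprl3 is lower in Fzd1lacZ at every age.

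The test of the difference between P14 and the other ages called 7 genes (0.0316%). Of these Lcn2, Tnfsf11 and Olfm5 had a more positive difference at P14 (0.0135%), and Omp, Fut10, Gdf11 and BC002163 a more negative one (0.0181%). Olfm5, an olfactomedin family gene in the same window around Omp, was at 158, 194 and 208 CPM in Fzd1lacZ, against 60.6, 53.0 and 51.9 CPM in control at P14 (1.76, SE 0.33, adjusted p = 0.00123), and had -0.31 over the other ages. Omp itself averaged 589, 884, 1070.4, 1448 and 2222 CPM in Fzd1lacZ with rising age, against 226, 27.9, 30.1, 51.6 and 1409 CPM in control. The 2 libraries of ectopicFzd1 mice at P14, which carry Omp-IRES-tTA and tetO-Fzd1-IRES-tdTomato and had no DOX, held 28.1 and 31.3 CPM of Omp. The level of Omp in control at P14 was thus far above that in control at P3, P7 and P10, and the cause was not tested. The labels do not say how many copies of Omp-IRES-tTA the control mice carried at any age.

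Many of the called genes also differed between P3 and P14 in control with DOX. Age may not be the only difference between those libraries. Omp averaged 222 CPM at P1, 30.1 CPM at P3 and 1296 CPM at P14 in control with DOX. Lcn2 averaged 170 CPM at P3 and 26.4 CPM at P14. The part of age in the values below was not tested. In control with DOX, whose libraries are in none of the comparisons above except where named, 11.9% of all genes were called higher and 11.8% lower at P14 than at P3, a comparison added after seeing the data. Of the 85 genes higher in Fzd1lacZ at P14, 41 were called lower at P14 than at P3 in control with DOX and 6 higher. Of the 73 genes lower in Fzd1lacZ, 42 were called higher at P14 than at P3 and 3 lower. From P3 to P14 in control with DOX, Lcn4 changed by 7.06 (adjusted p = 1.91e-08), Obp2b by 4.86 (adjusted p = 2.11e-07), Mcm6 by -0.69 (adjusted p = 0.00131), Miat by -2.32 (adjusted p = 3.45e-08) and Olfm5 by -4.39 (adjusted p = 1.05e-13). Between P14 and P10 in control with DOX, 0.0948% of all genes were called (0.0677% higher and 0.0271% lower). Of the 85 higher genes 64 had a negative and 19 a positive value between P14 and P10, and of the 73 lower genes 27 had a negative and 46 a positive value. None of these higher or lower genes was called between P14 and P10. Over all genes tested, 10673 had a negative and 11465 a positive value.

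**Figure D5:**
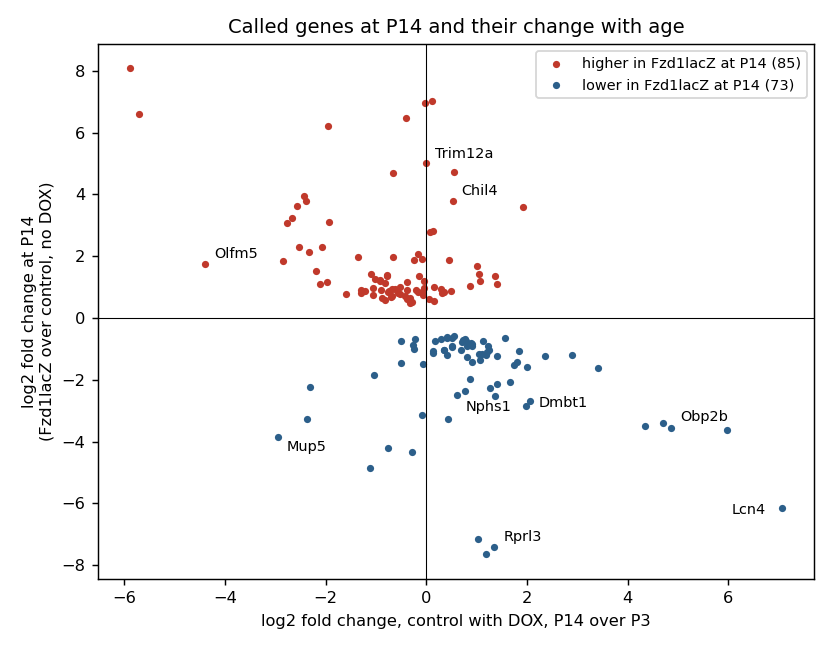
Each point is 1 of the 158 genes called at P14, with its log2 fold change between P14 and P3 in control with DOX on the x axis and its log2 fold change of Fzd1lacZ over control without DOX at P14 on the y axis. Of the 85 higher genes (red) 64 lie to the left of 0, and of the 73 lower genes (blue) 59 lie to the right. Over all genes tested, 11470 had a negative and 10671 a positive value between P14 and P3.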

How the data were processed

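RNA was extracted with TRIzol and made into stranded total RNA libraries after removal of ribosomal RNA, per the labels' protocols. Reads were made with bcl2fastq 2.18 and aligned to mm10 with STAR 2.6.1c, per the submitters' processing notes. The deposited table of counts holds the authors' whole reads per gene, not normalized. The deposited TPM table holds the authors' RSEM values, scaled for gene length and library. Which annotation and which strand setting the counting used is not given in the sources used here, so antisense and overlapping genes are uncertain. Reads outside genes stayed out of library sizes: among the 6 libraries, 24.4% to 47.4% of reads lay in no gene, 20.8% to 27.6% mapped to several places, and 16.3% to 40.8% were assigned to genes.

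Counts of all 72 libraries were fitted in R 4.3.3 with edgeR 4.0.16, with 1 term per group, TMM factors and filterByExpr, which kept 22144 genes. Log2 fold changes, standard errors (SE, the log2 fold change over the square root of F) and Benjamini-Hochberg adjusted p-values come from its quasi-likelihood test, with a threshold of 0.05. CPM is scaled with TMM factors. The steps were tested on simulated data. Of 54532 gene IDs, 54495 matched GENCODE M21, which gave positions on GRCm38. Promoter sequences are RefSeq's for GRCm38.p6.

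The members and the 45 gene lists were chosen with earlier results of these data known. Genes named by rule are Fzd1 and Omp, the 15 called genes with the largest rises and the 15 with the largest falls (average log2 CPM over 0, no receptors, no predicted or antisense names), up to 4 called members of a list, up to 3 members of highest level where none was called, called genes within 10 Mb of Fzd1 or Omp, and the 6 smallest p-values of the interaction. Alternatives were DESeq2 1.42.0, edgeR with the size factors of DESeq2, other filters, fewer libraries in the fit, limma 3.58.1 on log2 TPM with pseudocounts of 1 and 0.1, removal of the Gm10800-type family or its share as a covariate, control with DOX in place of control, and leaving out each library.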

Additional observations from a re-analysis of the deposited data

Results flagged for a closer look

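The difference between the effect at P14 and the mean effect at P0, P3, P7 and P10 passed edgeR's test of the interaction in 7 genes, given here as log2 values. Lcn2 had 3.68 (SE 0.70, adjusted p = 0.012), from 3.22 at P14 and -0.45 over the other ages, with Fzd1lacZ replicate 2 the highest library at P14. Tnfsf11 had 3.33 (SE 0.68, adjusted p = 0.0314) and Olfm5 had 2.07 (SE 0.37, adjusted p = 0.00401). Omp had -3.43 (SE 0.40, adjusted p = 1.4e-07), with 0.66 at P14 and 4.09 over the other ages, where control libraries were low in Omp from P3 to P10. Fut10, a fucosyltransferase family gene, had -1.92 (SE 0.28, adjusted p = 3.86e-05): it was at 21.8, 8.72 and 7.17 CPM in Fzd1lacZ, against 22.8, 25.3 and 27.4 CPM in control at P14, and was higher in Fzd1lacZ over the other ages (0.74, adjusted p = 0.000454). From P0 to P14 Fut10 averaged 22.5, 25.5, 20.7, 14.9 and 12.6 CPM in Fzd1lacZ, against 16.8, 12.4, 8.36, 11.2 and 25.2 CPM in control. The control level itself thus differed between ages, as that of Omp did, and the cause was not tested. Gdf11, a growth factor known to restrain olfactory neurogenesis, had -0.84 (SE 0.18, adjusted p = 0.045), at 50.9, 55.2 and 67.2 CPM in Fzd1lacZ, against 93.1, 84.8 and 93.6 CPM in control at P14. BC002163, which lies outside the rule for named genes and is named after its values were seen, had -4.36 (SE 0.92, adjusted p = 0.045), with 0.26 at P14 and 4.62 over the other ages.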

How the results depend on the processing

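The 158 calls at P14 became 250 with no filter on low counts, 98 with only the 6 libraries compared, 33 and 22 with limma on log2(TPM + 1) and log2(TPM + 0.1), 402 against control with DOX, 58 to 167 with 1 library left out, and 65 without Fzd1lacZ replicate 1 and control replicate 3. DESeq2 called 216 and its size factors in edgeR 200. The 7 calls of the interaction became 56 with DESeq2, 11 with its size factors, 2 to 14 with 1 library left out and 3 without both libraries named above. Lists with at least 3 called members were 4, against 7 with no filter, 1 and 0 on the TPM scales, 7 against control with DOX, 1 to 5 with 1 library left out and 1 without both libraries. The 473 calls at the other ages stayed within 1.5 times under all alternatives run, but the genes called were not all the same. With P3, P7 and P10 only, 467 were called, of which 261 were among the 473. Of the 158 calls at P14, 108 were kept without Fzd1lacZ replicate 1, 96 against control with DOX and 74 with only the 6 libraries compared. The difference in Fzd1 was -1.10 on the log2(TPM + 1) scale. The difference in odorant receptor share was 0.172 percentage points without the Gm10800-type family and 0.0213 as a percent of TPM. Against control with DOX the sign turned for Mup5 (4.31), Obp1b (0.75), Crisp1 (0.25) and Btg2, an immediate early gene (-0.99). The cause of these changes was not tested. No paired analysis was possible because the labels carry no replicate numbers that the groups share. Depth limits genes near or below 1 CPM, since 1 read is worth 0.435, 0.145 and 0.167 CPM in the Fzd1lacZ libraries and 0.257, 0.338 and 0.236 CPM in the control libraries.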
